A study of Mus musculus with 8 samples.

Results

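Genes that mark mast cells were followed across 8 microarrays of tumour-associated macrophages: the granule proteases Cpa3, Cma1, Mcpt4 and Tpsb2, the IgE receptor chains Ms4a2 and Fcer1a, the growth factor receptor Kit, the transcription factor Gata2 and the histamine-forming enzyme Hdc. They were taken by symbol, from probe sets annotated with 1 gene symbol only, and all 9 of the 9 genes were found among the 18193 genes measured, on 14 probe sets. A probe set is a group of short oligonucleotides on the array that reports 1 transcript. Where a gene had 2 probe sets (Tpsb2, Kit, Gata2, Ms4a2 and Hdc), the one with the higher mean over the 8 arrays stood for the gene, and the other is given beside it.

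The cells came from mammary tumours of 80-day-old FVB mice and had been sorted by flow cytometry for F4/80, a macrophage surface protein. All mice carried PyMT, a viral oncogene transgene that gives rise to mammary tumours, and E2f3 f/f, 2 copies of the cell cycle transcription factor gene E2f3 flanked by recombination sites. The 4 control arrays (replicates B, C, D and G) were PyMT;E2f3 f/f without Cre, and the 4 E2f3-deleted arrays (replicates A, E, F and H) were PyMT;Lys Cre;E2f3 f/f, in which the lysozyme gene drives Cre recombinase in myeloid cells. No group had Cre without the floxed gene, so loss of E2f3 and presence of Cre cannot be told apart. Whether each array came from a separate mouse is not given in the sources used here, and p-values then reflect array-to-array spread only, which may be technical. The number of arrays, 4 a group, limits the precision.

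Mast cells are tissue-resident cells of the blood lineage that mature under KIT ligand and store proteases, histamine and heparin in granules. IgE bound to its high-affinity receptor triggers release of the granules. Connective tissue mast cells hold chymase, tryptase and carboxypeptidase A, and mucosal mast cells hold other chymases. GATA factors, with GATA2 foremost in mast cells and their progenitors, bind GATA motifs near many mast cell genes.

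Because GATA2 is one of the genes followed, the bases before the start sites of the 9 genes were searched for the letters GATAA on either strand (TTATC on the opposite strand), in the 250 bases before each start that the RefSeq entry gives. RefSeq promoter entries of build GRCm38.p6 were matched by symbol for 8 of the 9 genes. The letters were present in 5 of them, Cpa3, Cma1, Mcpt4, Ms4a2 and Fcer1a, and absent from the entries of Kit, Gata2 and Hdc, while 22.6% of all 32851 promoter entries held them. Replicate H was the highest array for the proteases and not for the receptor chain Fcer1a, whose low signal may be background. The windows of 3 proteases and of Fcer1a are shown, because all hold the letters but replicate H set them apart. They are written 5′ to 3′ with GATAA or TTATC in capitals, all on the minus strand, Cpa3 at chr3:20242210-20242431, Cma1 at chr14:55944676-55944925, Mcpt4 at chr14:56062311-56062560 and Fcer1a at chr1:173227233-173227479.
Cpa3: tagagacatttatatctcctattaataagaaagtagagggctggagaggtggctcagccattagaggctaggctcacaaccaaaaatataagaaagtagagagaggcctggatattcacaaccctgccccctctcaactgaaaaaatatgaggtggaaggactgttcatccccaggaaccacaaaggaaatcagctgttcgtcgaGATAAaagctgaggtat
Cma1: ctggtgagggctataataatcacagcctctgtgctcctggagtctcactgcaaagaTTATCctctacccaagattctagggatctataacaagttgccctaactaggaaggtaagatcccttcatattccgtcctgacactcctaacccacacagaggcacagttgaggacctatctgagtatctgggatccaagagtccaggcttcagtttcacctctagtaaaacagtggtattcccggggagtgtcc
Mcpt4: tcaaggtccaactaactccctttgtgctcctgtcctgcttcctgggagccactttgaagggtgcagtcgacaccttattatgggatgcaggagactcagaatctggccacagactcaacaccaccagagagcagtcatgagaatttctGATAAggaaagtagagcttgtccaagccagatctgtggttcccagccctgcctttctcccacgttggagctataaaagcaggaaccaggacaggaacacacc
Fcer1a: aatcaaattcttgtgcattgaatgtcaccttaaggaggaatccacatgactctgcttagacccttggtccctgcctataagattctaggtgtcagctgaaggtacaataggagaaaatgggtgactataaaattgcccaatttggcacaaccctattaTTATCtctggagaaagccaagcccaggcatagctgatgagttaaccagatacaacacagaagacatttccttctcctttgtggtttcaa
The first base of the match lay 45 bases before the start in Cpa3, 194 in Cma1, 102 in Mcpt4 and 92 in Fcer1a. A gene can have several starts, and bases that RefSeq places inside the gene, 28 for Cpa3 and 3 for Fcer1a, are not shown. Ms4a2 held 3 matches, 224, 37 and 10 bases before the start of its entry, and since 71 bases of that window lie inside the gene, the matches at 37 and 10 do too. The whole windows of Hdc and of 1 of the 2 Gata2 entries lie inside the gene, as do 4 bases of 1 of the 2 Kit entries. The E-box letters CANNTG, which read the same on both strands, were present in 4 of the 8 genes (Cpa3, Cma1, Fcer1a and Hdc) and in 66.2% of all entries, and the STAT letters TTCNNNGAA, which also read the same on both strands, in 0 of the 8 and 7.02% of all entries.

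One array, replicate H of the E2f3-deleted group, differed from the others over the whole table. It correlated with the arrays of its group at a mean r of 0.9825, where the other 3 E2f3-deleted arrays had 0.9901 to 0.9908 and the controls 0.9944 to 0.9953, while array medians lay between 5.65 and 5.69 log2. Differences of the proteases, Ms4a2, Kit and Gata2 are given with and without it. For the remaining genes the difference without it is given only for some. The difference between the 3′ and 5′ Gapdh probe sets, a measure of RNA degradation, was 1.39 to 1.53 log2 in the controls and 1.48 to 1.87 in the E2f3-deleted arrays. Macrophage genes were present at high signal on every array, among them Lyz2, the lysozyme whose locus drives Cre, at 14.34 to 14.64 and Cd68 at 13.24 to 13.85. The 2 E2f3 probe sets read 7.58 to 7.83 and 6.03 to 6.31 in the controls and 7.53 to 7.79 and 5.92 to 6.12 in the E2f3-deleted arrays. Their position relative to the deleted part of the gene is not given, so they check nothing.

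Carboxypeptidase A3, encoded by Cpa3 and packed with heparin in the granules, had the largest difference between the groups among the 9 genes. Its log2 signal was 8.13, 8.30, 6.56 and 8.34 on control arrays B, C, D and G and 8.92, 9.95, 7.48 and 12.88 on E2f3-deleted arrays A, E, F and H. Replicate H was far above all others, A and E lay above every control, and F lay below 3 of the 4 controls, so the groups overlapped. The means were 7.83 ± 0.856 (SD, n = 4) and 9.81 ± 2.284 (SD, n = 4), a difference of 1.98 log2 (SE 1.04, 95% confidence interval −0.39 to 4.34) or 3.93-fold, with an adjusted p of 0.488 in limma. Without replicate H the difference was 0.95 (95% interval −0.50 to 2.40, limma adjusted p = 0.608). In bulk RNA such as this, a different number of mast cells and a different amount of RNA per mast cell cannot be told apart.

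Cma1, the connective tissue chymase that cleaves angiotensin and matrix proteins, followed the same order of arrays but for control arrays C and G. It read 7.44, 7.62, 6.30 and 7.58 in the controls and 7.99, 9.17, 6.73 and 11.62 in the E2f3-deleted arrays. Again H, E and A lay above every control and F lay below all but control D. The difference was 1.64 log2 (SE 0.92, 95% interval −0.47 to 3.75, limma adjusted p = 0.512), and 0.73 without replicate H.

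Mcpt4, the chymase regarded as the mouse counterpart of human chymase in function, read 5.75, 5.99, 5.56 and 5.78 in the controls and 5.94, 7.32, 4.80 and 8.95 in the E2f3-deleted arrays. The controls sat within a narrow band, while E2f3-deleted arrays lay on both sides of it, F below every control and E and H above. The SD was 0.174 in the controls and 1.793 in the E2f3-deleted arrays (n = 4 each), and the difference of 0.99 log2 (SE 0.77, 95% interval −0.77 to 2.73, limma adjusted p = 0.625) was 0.25 without replicate H.

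Tpsb2, a beta tryptase stored as a heparin-bound tetramer, read 6.16, 6.19, 5.42 and 6.10 in the controls and 6.34, 7.20, 5.63 and 9.96 in the E2f3-deleted arrays. The pattern was that of Cpa3, with D and F lowest and H highest. Its difference was 1.31 log2 (SE 0.82, 95% interval −0.57 to 3.19, limma adjusted p = 0.552), and 0.42 without replicate H. The second Tpsb2 probe set stayed between 3.06 and 3.32 on 7 arrays and read 3.87 on replicate H. Tpsb2 and Tpsab1, and the chymase genes, are near copies of each other, and probes may read more than 1 of them, which was not tested.

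**Figure D1:**
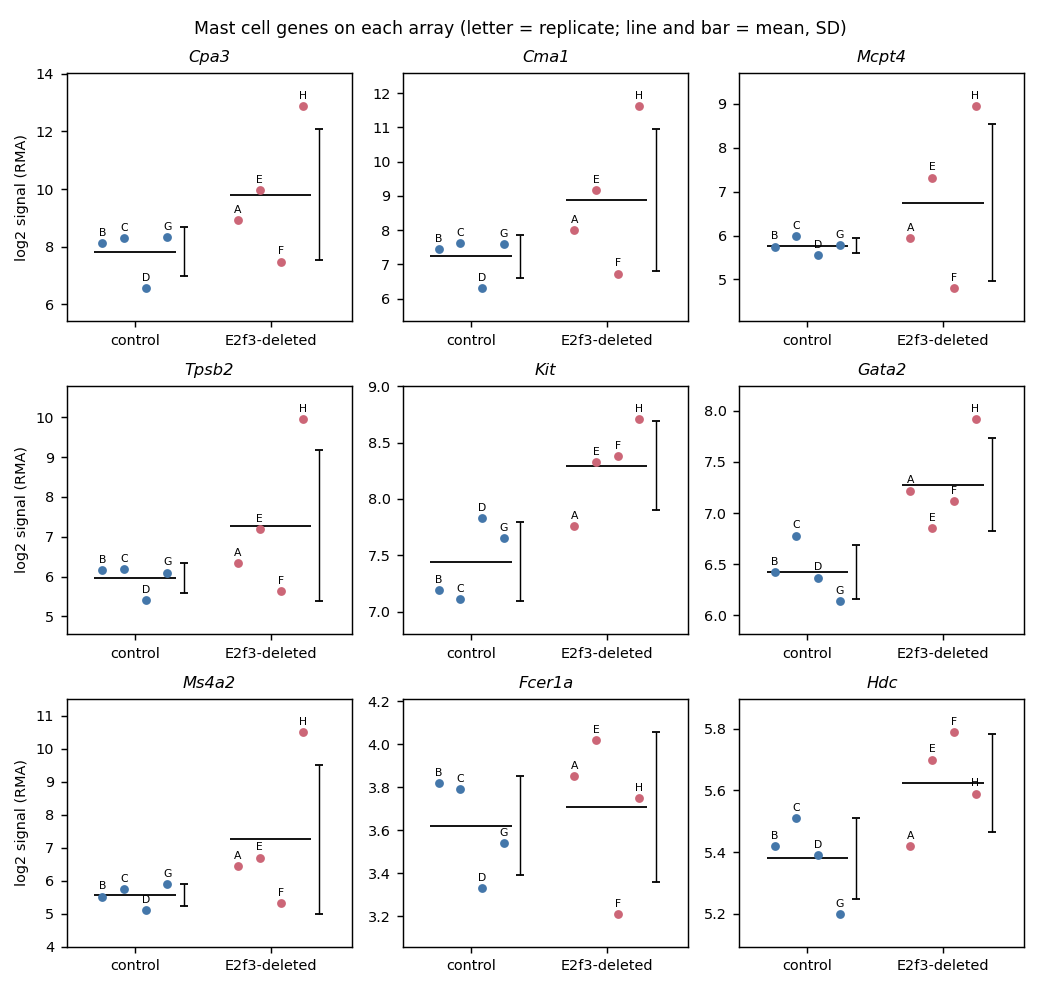
Log2 signal (vertical axis, a separate scale for each gene) of the 9 mast cell genes on each array, controls in blue and E2f3-deleted arrays in red, with the replicate letter at each point, a line at the group mean and a bar of 1 SD on either side (n = 4). Replicate H is the highest array for 7 of the 9 genes, with Cpa3 at 12.88, and for Gata2 alone all 4 E2f3-deleted arrays lie above all 4 controls.

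Ms4a2, the beta chain that amplifies signalling by the IgE receptor, behaved like the proteases. It read 5.52, 5.75, 5.10 and 5.89 in the controls and 6.45, 6.70, 5.33 and 10.51 in the E2f3-deleted arrays. Replicates A, E and H lay above every control and F fell within the control range. The difference was 1.68 log2 (SE 0.97, 95% interval −0.54 to 3.90, limma adjusted p = 0.525) or 3.21-fold, and 0.59 (SE 0.33) without replicate H. The second Ms4a2 probe set read 3.30 to 3.67 on 7 arrays and 5.34 on replicate H, so both probe sets had their highest value on that array.

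For Fcer1a, the alpha chain that binds IgE itself, replicate H was not the highest array, as was also so for Hdc. Fcer1a read 3.82, 3.79, 3.33 and 3.54 in the controls and 3.85, 4.02, 3.21 and 3.75 in the E2f3-deleted arrays, within 1 log2 unit throughout. Replicate H lay between the controls, while D and F were the lowest arrays, as for the proteases, and the difference was 0.09 log2 (SE 0.18, 95% interval −0.33 to 0.50, limma adjusted p = 0.87), and it turned to −0.01 without control D and −0.02 without replicate E. Its mean lay below the 40th percentile of all gene means (5.998 log2), as did that of Hdc. Over the arrays other than replicate H, the means of Mcpt4 (5.88) and Ms4a2 (5.82) lay below that value too. At percentile 12.6, the signal of Fcer1a may be background. The third chain, Fcer1g, is shared with Fc receptors of macrophages and read 12.02 to 12.59 on all arrays.

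Kit, the receptor for KIT ligand on which mast cells depend for survival, showed a smaller gap between replicate H and the other arrays than the proteases did. It read 7.19, 7.11, 7.83 and 7.65 in the controls and 7.76, 8.33, 8.38 and 8.71 in the E2f3-deleted arrays. E, F and H lay above every control, and only A fell below control D. The means were 7.45 ± 0.349 and 8.30 ± 0.392 (SD, n = 4 each), a difference of 0.85 log2 (SE 0.23, 95% interval 0.33 to 1.37) or 1.80-fold, with an unadjusted p of 0.00525 and an adjusted p of 0.277 in limma. The exact two-sided permutation test over the 70 assignments of the arrays gave p = 0.0571, where the smallest possible is 0.0286. Without replicate H the difference was 0.71 (SE 0.22). The second Kit probe set, at 4.61 to 5.13 on all arrays, differed by 0.17 (SE 0.11).

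Gata2, which encodes a transcription factor of mast cells, blood progenitors and endothelium, was the only 1 of the 9 genes whose groups did not overlap on its main probe set. It read 6.42, 6.78, 6.37 and 6.14 in the controls and 7.22, 6.85, 7.12 and 7.92 in the E2f3-deleted arrays. The lowest E2f3-deleted array, E, exceeded the highest control, C, by little. The means were 6.43 ± 0.265 and 7.28 ± 0.455 (SD, n = 4 each), a difference of 0.85 log2 (SE 0.23, 95% interval 0.33 to 1.37), with an unadjusted p of 0.00534 and an adjusted p of 0.277 in limma. The exact permutation p was 0.0286, the smallest that 4 arrays against 4 can give. Without replicate H the difference was 0.64 (SE 0.15, limma adjusted p = 0.16). The second Gata2 probe set read 5.17, 5.33, 5.01 and 5.02 in the controls and 5.79, 5.39, 5.51 and 5.37 in the E2f3-deleted arrays, again without overlap, and differed by 0.39 (SE 0.11, limma adjusted p over all probe sets 0.38).

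Hdc, histidine decarboxylase, makes histamine from histidine. Its brighter probe set read 5.42, 5.51, 5.39 and 5.20 in the controls and 5.42, 5.70, 5.79 and 5.59 in the E2f3-deleted arrays, a difference of 0.25 log2 (SE 0.10, 95% interval 0.02 to 0.47, limma adjusted p = 0.387). The highest array was F, the one lowest or next to lowest for the proteases. The dimmer probe set read 3.91, 4.54, 4.07 and 4.02 in the controls and 5.50, 5.28, 6.07 and 4.72 in the E2f3-deleted arrays, with no overlap and again with F highest. It differed by 1.26 log2 (SE 0.26, limma adjusted p over all probe sets 0.281). Replicate H was the lowest of the E2f3-deleted arrays on it. Both Hdc probe sets are of a type that may match several transcripts, and they differ in the size of the difference.

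All 9 genes had a higher mean in the E2f3-deleted arrays, with a median difference of 0.98 log2 (0.59 without replicate H), beside a median of −0.025 over all genes, 41.8% of which were higher. None of the 9 passed an adjusted p of 0.05 in limma, as was the case for 0 of all 18193 genes (0%), of which 2156 were at an unadjusted p under 0.05. In the higher direction, 3 of the 9 (Kit, Gata2 and Hdc) were at an unadjusted p under 0.05, against 6.05% of all genes, and 1 of the 9 (Gata2) had higher groups that did not overlap, against 3.37% of all genes. Without replicate H, 0 of the 9 and 8 of all genes (0.044%) passed the adjusted threshold in limma, and the same 3 were at an unadjusted p under 0.05 with a higher mean, against 7.68% of all genes. Without replicate E, 67 of all genes (0.368%) and 0 of the 9 passed it. The labels also carry scan file letters that would place control B among the E2f3-deleted arrays and E2f3-deleted F among the controls; grouped that way, the differences of Kit, Gata2 and Hdc were 0.26, 0.50 and 0.06 and that of Cpa3 was 2.30 (limma adjusted p 0.922 to 0.955).

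**Figure D2:**
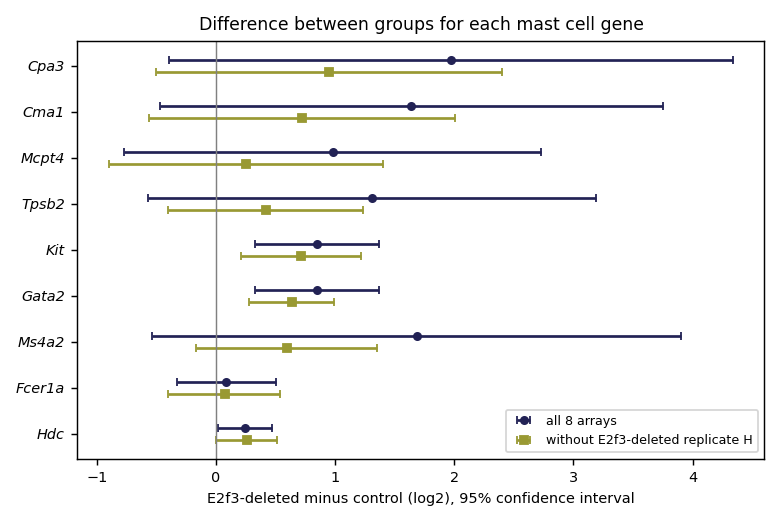
Difference in log2 signal, E2f3-deleted minus control (horizontal axis), for the 9 mast cell genes (rows), with all 8 arrays (circles) and without E2f3-deleted replicate H (squares), and the 95% confidence interval from limma as bars. The intervals of Kit and Gata2 lie above 0 in both fits, and those of the 4 proteases and Ms4a2 reach below 0 in both, with Cpa3 at 1.98 and 0.95.

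The spread between arrays was wider in the E2f3-deleted group for 9 of the 9 genes, as it was for 62.1% of all genes. Replicate H was the highest of the 8 arrays for 7 of the 9 (for 16.0% of all genes). Its log2 signal exceeded the mean of the other 7 arrays by 4.64 for Cpa3, 4.70 for Ms4a2, 4.07 for Cma1, 3.81 for Tpsb2 and 3.08 for Mcpt4, from 8.43-fold for Mcpt4 to 25.9-fold for Ms4a2. Only 91 of all 18193 genes had a gap of at least 3 log2 there, and these 5 were among them. On the other 7 arrays Mcpt4 averaged 5.88 and Ms4a2 5.82 log2, below the 40th percentile of all gene means (5.998). The folds of Mcpt4 and Ms4a2 therefore rest on low signals. For Kit and Gata2 the gap was 0.96 and 1.22, and for Fcer1a and Hdc 0.10 each.

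The 4 proteases and Ms4a2 ordered the arrays almost alike. From lowest to highest, Cpa3 and Ms4a2 both ran D, F, B, C, G, A, E, H, and in each of the 5 genes D and F were the lowest pair and E and H the highest. Over the 8 arrays, Pearson's r between the 5 genes was 0.933 to 0.997 (10 pairs), and 0.796 to 0.994 over the 7 arrays without replicate H. The 5 genes share the same RNA on each array, and these values are a description. Kit and Gata2 kept another order: between Cpa3 and Kit r was 0.563 and, without replicate H, 0.13, and between Cpa3 and Gata2 0.756 and 0.32. Between Fcer1a and the 5 genes r was 0.361 to 0.552 over 8 arrays and 0.799 to 0.888 without replicate H, on a probe set of low signal. Array F, low for the proteases, was the next to highest for Kit.

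Among 10909 genes with a mean at or above the 40th percentile, the gene most like the mean profile of the 4 proteases over 8 arrays was Tpsab1, the alpha and beta tryptase gene (r = 0.966 and 0.965 without replicate H, rank 1 in both). The next were Nptn (0.963), Norad (0.959), Lrp6 (0.950), Zfp317 (0.948), Atrx (0.933), Lamp2 (0.932), Fgfr1 (0.925), Crot (0.924), Secisbp2l (0.918), Pdcl (0.918) and St3gal5 (0.918). Of the 27 genes with r over 0.9, 1 was also among the 19 with r over 0.9 without replicate H. The signal of several of them differed little in size, Nptn between 11.89 and 12.14 on all arrays, while Tpsab1 read 6.03, 6.40, 5.21 and 6.19 in the controls and 6.07, 7.20, 5.26 and 13.11 in the E2f3-deleted arrays.

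The other genes listed for mast cells were divided in direction. Several of them read high on every array of these sorted macrophages, among them Syk at 10.36 to 11.38 and Alox5ap at 13.07 to 13.53. The direction of such genes may not report on mast cells. Of 62 listed, 55 had a probe set: 21 had a higher and 34 a lower mean in the E2f3-deleted arrays, the median difference was −0.07 log2 (−0.01 without replicate H), 0 were under 0.05 after adjustment in limma, and at an unadjusted p under 0.05 were 4 higher and 5 lower, beside 6.05% of all genes higher and 5.8% lower. Of the 55, 6 were at least 2 log2 above the other arrays on replicate H, as were 224 of all genes (1.23%). They included proteases of mucosal mast cells. Mcpt2, a mucosal chymase, stayed between 3.56 and 3.87 on 7 arrays and read 12.22 on H. Tpsab1 read 13.11 on H and 5.21 to 7.20 elsewhere, and Mcpt1, another mucosal chymase, read 6.33 on H and 2.84 to 3.34 elsewhere. The other 3 were Tph1, which makes serotonin (7.25 against 4.17 to 4.80), Slc18a2, the transporter that loads amines into granules (5.32 against 3.08 to 3.54), and Rgs13, a regulator of G protein signalling in mast cells (7.20 against 2.45 to 4.47). Signals as low as those of Mcpt1 and Mcpt2 on the other 7 arrays may be background, so no fold is given for them. Without replicate H the group differences of Mcpt2 and Tpsab1 were −0.02 and 0.22 log2.

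**Figure D3:**
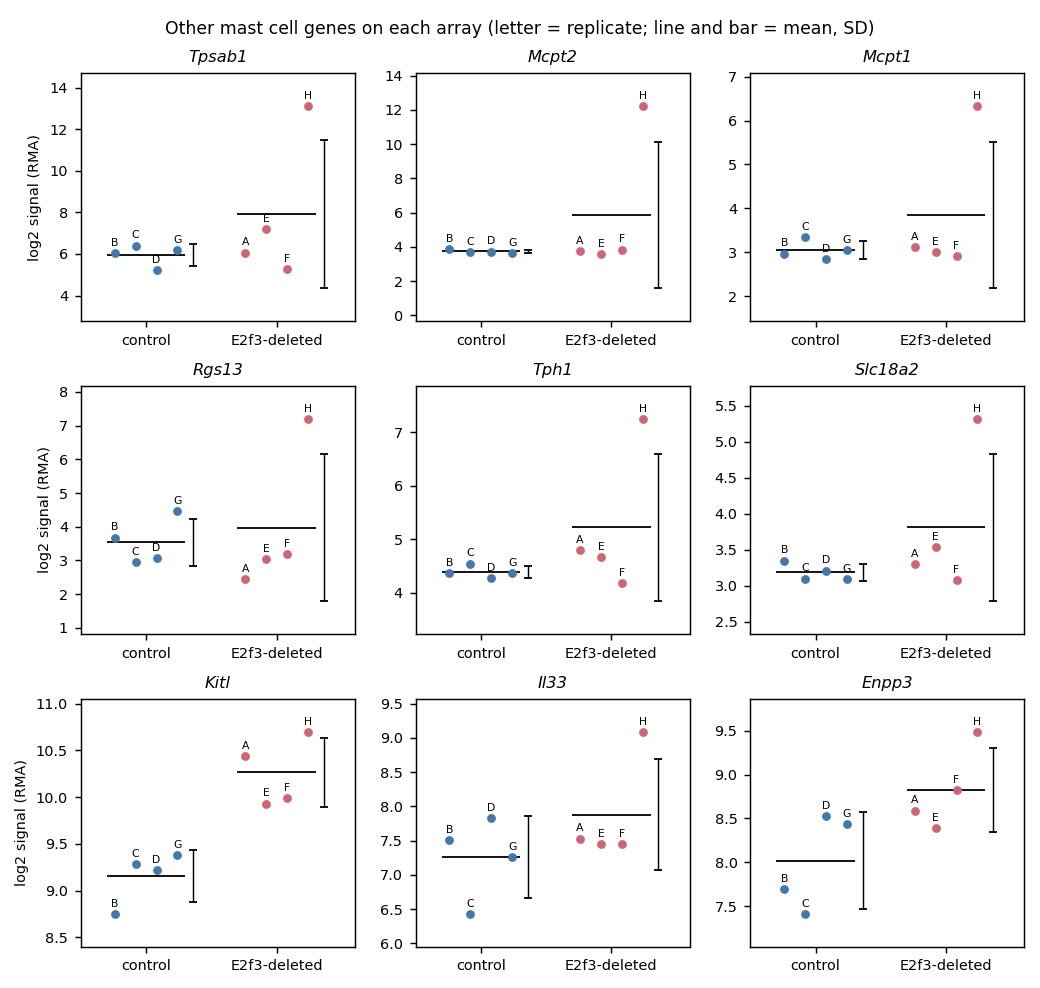
Log2 signal (vertical axis, a separate scale for each gene) of 9 further genes listed for mast cells on each array. Kitl and Il33 among them encode factors that act on mast cells. Controls are in blue and E2f3-deleted arrays in red, with the replicate letter at each point. The group mean is a line and 1 SD on either side a bar (n = 4). Mcpt2 and Tpsab1 are high on replicate H alone, at 12.22 and 13.11, whereas Kitl is higher on all 4 E2f3-deleted arrays than on any control.

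Among 8 measured genes listed with granule proteases and proteoglycan, 6 had a higher and 2 a lower mean (median 0.19 log2). Without replicate H only 3 were higher, with a median of −0.03. Ndst2, which sulfates heparin, differed by −0.17 (SE 0.08) and Tpsg1 by 0.24 (SE 0.13), or 0.11 without replicate H. Srgn, the core protein of granule proteoglycan that macrophages also make, stayed at 13.30 to 13.50. Of 12 measured genes of IgE receptor signalling, 2 had a higher and 10 a lower mean, with a median of −0.20 log2. Vav1, an exchange factor below the receptor, had lower values without overlap (−0.23, SE 0.07, limma adjusted p = 0.313), and Plcg1, a phospholipase, higher values without overlap (0.39, SE 0.12, limma adjusted p = 0.314). Among all 55 measured genes listed for mast cells, 4 (Plcg1, Meis2, Itga2b and Kitl) were higher without overlap, beside 3.37% of all genes. Only 1 (Vav1) was lower without overlap, beside 3.69% of all genes. Among 11 transcription factors, 3 had a higher and 8 a lower mean, and 6 were higher without replicate H. Meis2 differed by 0.42 (SE 0.13), Mitf, the factor that drives many mast cell genes, by −0.14 (SE 0.07) and Lmo2 by −0.07 (SE 0.09). Among 10 genes of histamine, serotonin and lipid mediators, 3 were higher and 7 lower, and 5 were higher without replicate H. Alox5, which starts leukotriene synthesis, differed by −0.29 (SE 0.11), Alox5ap by −0.14 (SE 0.09) and the histamine receptor gene Hrh4 by 0.15 (SE 0.10). Of 7 other surface genes, 5 were higher and 2 lower (4 higher without replicate H), with Enpp3 at 0.81 (SE 0.31) and Itga2b at 0.46 (SE 0.21). Without replicate H, Enpp3 differed by 0.585 and Itga2b by 0.223.

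Kitl, which encodes the ligand of KIT and is made by stromal, endothelial and epithelial cells, read 8.75, 9.28, 9.22 and 9.38 in the controls and 10.44, 9.93, 9.99 and 10.70 in the E2f3-deleted arrays. All E2f3-deleted arrays lay above all controls, as for Gata2. The difference was 1.11 log2 (SE 0.20, 95% interval 0.64 to 1.57) or 2.16-fold, with an adjusted p of 0.186 in limma, the smallest of any gene and shared by 63. Without replicate H it was 0.96. All 4 Kitl probe sets had a higher mean, by 1.24-fold to 2.16-fold. The other 6 measured growth factor and cytokine receptor genes included Il33, an alarmin that activates mast cells (7.51, 6.43, 7.83 and 7.26 against 7.53, 7.45, 7.45 and 9.09), Il4ra (−0.33, SE 0.21) and Csf2rb (−0.14, SE 0.14). Without replicate H, Il4ra differed by −0.169 and Csf2rb by 0.015.

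Cma1 and Mcpt4 lie in a cluster of protease genes on chromosome 14, where the order in RefSeq is Khnyn, Sdr39u1, Cma1, Cma2, Mcpt1, Mcpt2, Mcpt9, Mcpt4, Mcpt8, Ctsg and then the granzymes. The excess on replicate H over the mean of the other arrays was 4.07 log2 for Cma1 and 3.08 for Mcpt4, and Mcpt1 and Mcpt2, between them, were high on that array alone. Next to them the excess was −0.07 for Mcpt8, a basophil protease, 0.52 for Ctsg, cathepsin G, and −0.13 for Gzmb, and at the other end −0.05 for Khnyn and 0.13 for Sdr39u1. On chromosome 17 it was 3.81 for Tpsb2, 0.59 for its neighbour Tpsg1, a tryptase bound to the membrane, and −0.08 for Cacna1h. The tryptase gene Tpsab1, with an excess of 7.05, was not in the stretch of protein-coding genes looked at there, so its place beside Tpsb2 was not examined. The largest excess among the measured granzymes was 1.03, for Gzmc.

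Other cells that could lie in the sorted gate were followed with marker lists. Basophil markers (4 of 5 measured, all 4 below the 40th percentile) had array medians within 0.1 log2 of the control mean, with Mcpt8 at 3.80 to 4.24 and Il3ra at 4.96 to 5.90. Eosinophil markers (6 of 9, all 6 below it) had medians within 0.05, with Epx at 3.46 to 4.03, Prg2 at 3.23 to 3.72 and Siglecf at 4.99 to 6.03. Neutrophil markers (8 of 9, 5 below it) had medians of −0.18 to 0.07, with Elane at 4.85 to 5.36 and Ngp at 4.53 to 5.55. Elane and Ngp were below it, and markers above it varied more. S100a8 read 7.6 to 9.05 over the arrays (8.22 on replicate H) and S100a9 5.73 to 7.33 (7.14 on replicate H). The flat neutrophil median therefore does not show that the neutrophil signal was the same on every array. Single genes of that list departed on replicate H: Ltf, lactoferrin, read 9.41 there and 10.49 to 12.52 elsewhere, and Camp, an antimicrobial peptide gene, 5.52 and 4.27 to 4.85. On replicate H these medians were −0.09, −0.05 and −0.01, beside 3.18 for the 9 mast cell genes.

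Endothelial markers, like Gata2 and Kitl, had higher means in the E2f3-deleted group. This was so for 12 of 12 (median 1.18 log2, 1.59 without replicate H), 11 of them at an unadjusted p under 0.05 in limma, beside 6.05% of all genes higher. Their array medians relative to the control mean were −0.39 to 0.42 in the controls and 1.90, 1.03, 1.99 and −0.02 in arrays A, E, F and H. Erg, an endothelial transcription factor, differed by 1.37 (SE 0.36, limma adjusted p = 0.277) and Kdr, the VEGF receptor, by 1.10 (SE 0.30). On array H, where the brighter probe sets of Gata2 and Kit were highest, the endothelial median was at the level of the controls. The dimmer Gata2 probe set read 5.79, 5.39, 5.51 and 5.37 on A, E, F and H. There H lay barely below E and still above every control (5.01 to 5.33). The dimmer Kit probe set read 5.09, 5.09, 5.02 and 4.89 on these arrays. Luminal epithelium markers, 8 of 8 higher, had medians of −0.38 to 0.74 in the controls and 0.28, 0.72, 0.69 and −0.27 in A, E, F and H, with Epcam at 7.85 to 9.10 and the milk protein gene Csn3 at 14.08 to 14.43. Fibroblast markers were 10 of 10 higher (median 0.70 log2), and 9 of 10 without replicate H (median 0.14). Their array medians were −0.73 to 0.45 in the controls and 0.97, −0.45, −0.05 and 1.74 in A, E, F and H, so their highest array was that of the proteases. On H, Lum read 12.43 against 8.22 to 10.01 elsewhere, 3.40 log2 above the mean of the other arrays, and Dcn 13.23 against 9.84 to 11.70. Pdgfrb was at 10.58 and Pcolce at 10.81 there, while the collagen gene Col1a2, at 12.74, lay below control D. Macrophage markers, 0 of 9 higher, had medians of −0.04 to 0.08 in the controls and −0.23 to −0.07 in the E2f3-deleted arrays. Mertk, a receptor for dying cells, had lower values without overlap (−0.39, SE 0.13, limma adjusted p = 0.335), as did Cd68 and Adgre1. Of all genes, 3.69% were lower without overlap. At an unadjusted p under 0.05 in limma, 3 of the 9 macrophage markers were lower, beside 5.8% of all genes. T and B cell markers, 0 of 6 higher (1 without replicate H), had medians of −0.61 to 0.66 and −1.0 to 0.11, with Cd3e at −0.11 (SE 0.07) and Cd79b at −0.63 (SE 0.42). The part of these cells in the differences of Gata2, Kit, Kitl and the proteases was not tested.

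**Figure D4:**
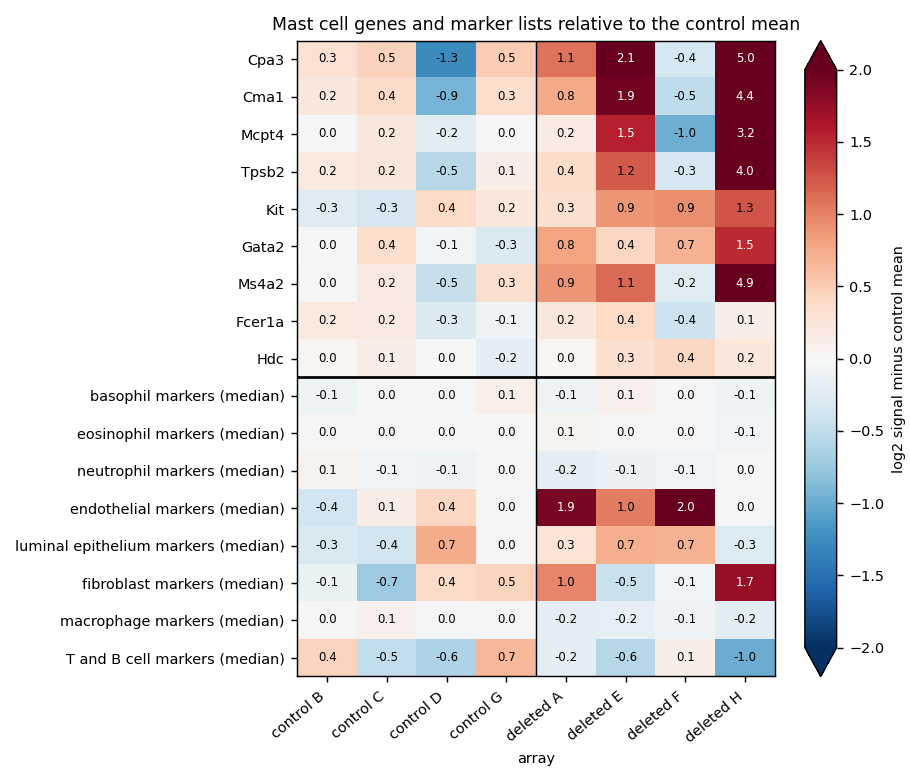
Log2 signal minus the control mean of each gene (colour and printed number), for the 9 mast cell genes and for the median of each marker list (rows) on each of the 8 arrays (columns, controls left of the line); the colour scale ends at 2 log2 in either direction. The proteases and Ms4a2 are highest on replicate H, where the fibroblast median is 1.7 and the endothelial median 0.0. The basophil, eosinophil and neutrophil medians stay within 0.2 on every array, while the neutrophil genes S100a8, S100a9 and Ltf vary more than their median.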

How the data were processed

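Trizol-extracted total RNA (1 ug a sample) was made into biotinylated cRNA for Affymetrix arrays, per the labels' protocols. The authors deposited log2 values after RMA, per the submitters' processing notes, for 45101 probe sets on each of 8 arrays. No version of RMA and no batch or scan date were found in these sources. RMA gives all arrays one distribution of probe signals, so a shift shared by most genes cannot be seen. Scan files were not analysed here.

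Groups follow the titles. The scan file letters in the descriptions differ from them, and grouping by those letters, which puts control B among the E2f3-deleted arrays and E2f3-deleted F among the controls, was an alternative. The replicate letters are not shared by the groups, so nothing was paired. No pair of arrays was identical (at most 0.317% of probe sets had equal values).

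Gene names came from the annotation of the array platform, in which 34945 probe sets had 1 symbol, 932 several, 9160 none and 64 were controls; 34741 symbols were found by Entrez identifier in RefSeq (GRCm38.p6) and 0 needed updating. Each of the 18193 genes was represented by its probe set with the highest mean, with no filter on low signals. Differences (E2f3-deleted minus control) were tested by limma (version 3.58.1, R 4.3.3; moderated linear models, two-sided, Benjamini-Hochberg over all genes, adjusted p under 0.05), tested on simulated data first, with 95% intervals, and with exact two-sided permutation tests over 70 assignments for single genes. Second probe sets were adjusted over all probe sets.

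The members and the gene lists were chosen with earlier results of these data known. In each list the text names the 2 genes with the smallest p and the 1 with the highest mean. The text also names the 12 genes most like the mean centred profile of Cpa3, Cma1, Mcpt4 and Tpsb2. Mcpt1, Mcpt2, Tpsab1, Tph1, Slc18a2, Rgs13, Il33, Syk, S100a8, S100a9, Lum, Dcn, Camp, Adgre1 and the chromosome neighbours were named after their values were seen.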

Additional observations from a re-analysis of the deposited data

Results flagged for a closer look

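In 126 groups of 4 arrays, the gap between the highest or lowest array and the nearest other was divided by the range of the group, and 10 lay above Dixon's critical value for 4 samples, where chance gives about 1 in 20. Of the 28 groups of member probe sets, 4 were among them. Control replicate D lay below the other 3 controls for Cpa3 (6.56 log2, ratio 0.881), Cma1 (6.30, ratio 0.859) and Tpsb2 (5.42, ratio 0.874). These 3 genes varied together across arrays, so they are not separate observations. The second Tpsb2 probe set was higher on E2f3-deleted replicate H (3.87, ratio 0.869) than on the other 3 arrays of its group.

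Other genes had such a ratio too. On E2f3-deleted replicate H, Csf2rb was low (10.57, ratio 0.856) and Itga2b was high (8.29, ratio 0.861). On control replicate C, Meis2 was low (4.26, ratio 0.85) and Il3ra high (5.90, ratio 0.901). Ltf was high on control replicate D (11.73, ratio 0.901) and Atrx on control replicate G (11.28, ratio 0.93).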

How the results depend on the processing

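Of 144 values of the 9 genes under the alternatives, 142 kept their direction, and 0 passed an adjusted p of 0.05 in limma (adjusted p 0.15 to 0.986). The filters on low signals, the fit over every probe set and a changed variance prior alter only the p-value, not the difference. Averaging probe sets likewise leaves genes with 1 probe set unchanged. The count of 142 therefore includes directions fixed in advance. Only Fcer1a changed direction, to −0.011 log2 without control replicate D and −0.018 without E2f3-deleted replicate E (at most 0.251 with 1 array left out, without F). Leaving out 1 array at a time, the difference ranged from 0.952 (without H) to 2.751 (without F) for Cpa3, 0.726 to 2.354 for Cma1, 0.252 to 1.636 for Mcpt4, 0.416 to 1.86 for Tpsb2 and 0.594 to 2.323 for Ms4a2, with the same 2 arrays at the ends. It ranged from 0.713 to 1.028 for Kit, 0.637 to 0.993 for Gata2 and 0.187 to 0.314 for Hdc. Weighting arrays by their fit gave replicate H a weight of 0.37 and Cpa3 a difference of 1.208. Grouping by scan file letter lowered Kit to 0.258, Gata2 to 0.502 and Hdc to 0.061, and raised Cpa3 to 2.30 and Fcer1a to 0.389 (limma adjusted p 0.922 to 0.955). The mean over a gene's probe sets gave 0.751 for Hdc, 0.723 for Tpsb2, 0.512 for Kit and 1.078 for Ms4a2. The count of genes past the adjusted threshold ranged from 0 to 67 when 1 array was left out (67 without E, 8 without H). At an unadjusted p under 0.05 were 2156 genes, 1475 to 2453 with 1 array left out, 4540 with every probe set tested, 944 above the 60th percentile and 737 by scan file letter. Fcer1a and Hdc have no value under either filter on low signals, and Mcpt4, Tpsb2, Kit, Gata2 and Ms4a2 none under the stricter one. Mcpt4 and Ms4a2 passed the milder filter, at 5.998 log2, only through replicate H. Their means on the other arrays were 5.88 and 5.82. No paired analysis was possible because the groups share no replicate letter.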
